A study of Mus musculus with 4 samples.

Results

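The nuclear genes for the subunits of oxidative phosphorylation were followed in CD45+ immune cells sorted from the dura mater, the outermost layer of the meninges, after delivery of VEGF-C into the cerebrospinal fluid. The genes were taken by symbol: all rows of the gene table whose name began with Nduf and a subunit letter and number (complex I), was one of the 4 Sdh genes (complex II), or began with Uqcr (complex III), with Cox and a digit from 4 to 8 (complex IV), or with Atp5 (complex V), without names marked as pseudogenes or related sequences. This gave 89 of 55401 genes: 40 of complex I, 4 of complex II, 8 of complex III, 19 of complex IV, and 18 of complex V. Male wild-type (WT) C57BL/6J mice had received 2 μl of an adeno-associated virus (AAV) into the cisterna magna at 4 wk of age. In the AAV-mVEGF-C group the vector carried the full-length mouse growth factor. In the AAV-CTRL group it carried a soluble, Ig-tailed fragment of VEGFR-3 that does not bind VEGF-C, so both groups carried a vector and neither was uninjected. Each library came from the pooled dura of 10 to 12 mice, and the experiment was done 2 times, which gave 2 libraries per group. The pools are the replicates, so the spread between them is the only error measured here.

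Oxidative phosphorylation is the chain of reactions by which mitochondria turn the energy of nutrients into ATP. Complexes I and II pass electrons from NADH and succinate to coenzyme Q, complex III passes them on to cytochrome c, and complex IV passes them to oxygen. Complexes I, III, and IV pump protons across the inner membrane, and complex V, the ATP synthase, uses their return to make ATP. A few subunits at the core of complexes I, III, IV, and V are encoded by mitochondrial DNA, and all others, with all of complex II, are encoded in the nucleus. Among immune cells, macrophages and lymphocytes are known to shift the balance between this pathway and glycolysis with activation, and mature neutrophils are known to hold few mitochondria.

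The reads assigned to genes were between 32520709 and 46409700 per library. AAV-CTRL 1 had the most reads and the fewest detected genes, 20990, against 29221 to 37512 in the other libraries. Leukocyte markers were present in all 4 libraries, with Ptprc, which encodes CD45, between 191 and 214.9 TPM (transcript levels scaled by gene length so that all genes of a library sum to 1000000). The summed level of 9 neutrophil markers was 32100 and 15310 TPM in the controls, and 17780 and 20610 TPM in the treated libraries. The sum was carried by S100a8, S100a9, Ngp, and Ltf, with S100a9 alone at 13610 and 6214 TPM against 7858 and 9159 TPM. In TPM all of the 9 but Retnlg were highest in AAV-CTRL 1, and Retnlg was highest in AAV-mVEGF-C 2. Camp had 1026 and 648.4 TPM in the controls against 693.7 and 752.8 TPM. Cxcr2 was closer to level, at 22.45 and 15.19 TPM against 21.35 and 20.97 TPM. Of the 9 markers, 6 had a log2 fold change above 0.

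No oxidative phosphorylation gene passed the test between AAV-mVEGF-C and AAV-CTRL. Of the 89 genes, 80 had enough reads to be tested, and 0 of these had an adjusted p under 0.05 in the quasi-likelihood test of edgeR, adjusted by the Benjamini-Hochberg method, where 0 of all 19806 tested genes (0.0%) did. At an unadjusted p under 0.05 the counts were 0 of the 80 and 523 of all tested genes (2.64%). DESeq2 gave 77 calls among 40674 genes (0.189%) and limma-voom gave 0 (0.0%), and 0 of the oxidative phosphorylation genes were among either. The unadjusted counts were higher in some other settings, at 11 of 88 with no filter (1327 of all 40674 genes) and 8 of 80 on log2(TPM + 1) (902 of all 19806). In both of these settings the share of the oxidative phosphorylation genes was above that of all genes. With DESeq2 it was 2 of 88 (854 of all 40674). The lowest unadjusted p of the edgeR fit was 0.067, for Ndufc1.

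The direction of the differences was nevertheless uneven. Of the 80 genes, 70 (87.5%) were lower in AAV-mVEGF-C, against 49.6% of all tested genes, and 10 were higher, against 50.4% (on log2(TPM + 1), 1 was higher). Their median log2 fold change was −0.25, against 0.0034 over all tested genes, with single values between −2.24 and 0.17 and a median standard error (SE) of 0.22. For 6 genes the log2 fold change was larger than 0.5 in size, and for 1 it was larger than 1. These are descriptions of the group of genes and carry no test. In RNA from a mixed population, fewer cells of a type and less RNA per cell cannot be told apart.

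The libraries did not take equal part in this. Reads scaled by TMM factors to 1000000 per library (CPM) were highest in AAV-CTRL 1 for 62 of the 80 genes (77.5%; 32.6% of all tested genes), for 8 they peaked in the other control (10.0%; 24.8%), for 9 in AAV-mVEGF-C 2 (11.2%; 17.6%), and for 1 in AAV-mVEGF-C 1 (1.25%; 25.0%). The lowest value was that of AAV-mVEGF-C 1 for 53 genes (66.2%; 23.0% of all tested genes) and that of AAV-CTRL 2 for 16 (20.0%; 19.4%), while AAV-CTRL 1 was lowest for 6 (7.5%; 40.4%) and AAV-mVEGF-C 2 for 5 (6.25%; 16.7%). The genes thus ran from a high control library to a low AAV-mVEGF-C library, with the remaining libraries in between.

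In CPM, the 2 control libraries differed from each other by more than the group means did for most of these genes. The CPM of AAV-CTRL 1 was a median of 1.32 times that of AAV-CTRL 2 over the 80 genes, against 0.941 times over all tested genes, and this ratio ranged from 0.557 for Atp5g2 to 6.31 for Cox4i2. For 68 of the 80 genes (85.0%; 70.8% of all tested genes) the gap between the controls exceeded the difference between the group means. The gap between the AAV-mVEGF-C libraries exceeded it for 35, a count that was not set against all tested genes. Both AAV-mVEGF-C libraries lay below both controls for 17 genes (21.2%; 15.2% of all tested genes), and both lay above for 1, Cox5a (1.25%; 16.8%).

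Comparing single libraries gave the same picture. The median difference of log2(CPM + 1) was −0.49 for AAV-mVEGF-C 1 against AAV-CTRL 1, with 74 of 80 genes lower, and −0.33 for AAV-mVEGF-C 2 against AAV-CTRL 1, with 63 lower. Against AAV-CTRL 2 it was −0.11 for AAV-mVEGF-C 1, with 61 lower, and 0.07 for AAV-mVEGF-C 2, with 26 lower. The medians of all tested genes lay between −0.01 and 0.04 in these 4 comparisons. AAV-mVEGF-C 2 was therefore below AAV-CTRL 1 but not below AAV-CTRL 2 in most of these genes.

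**Figure D1:**
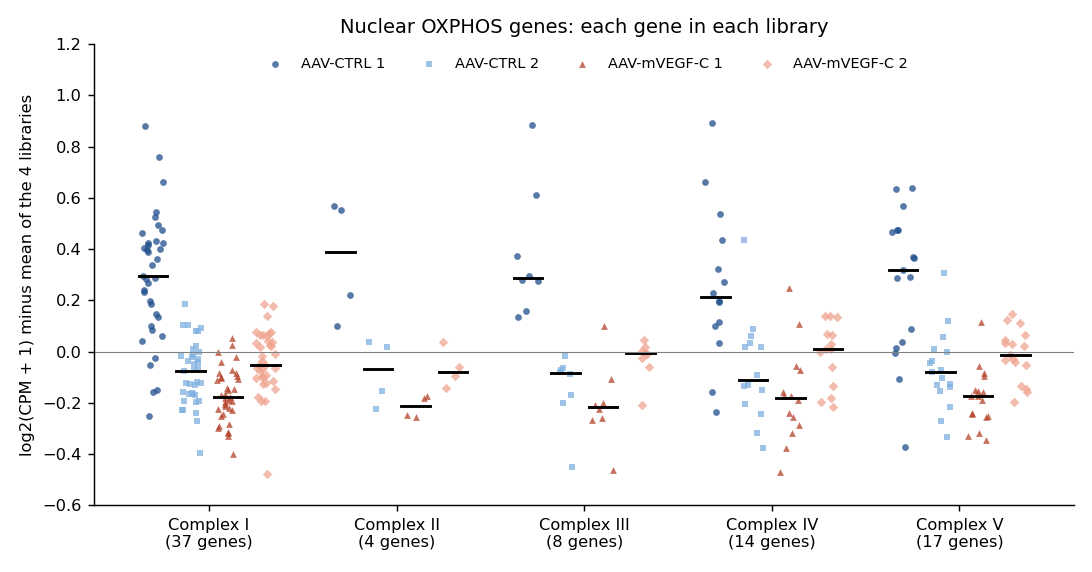
Each point is 1 tested gene in 1 library, as log2(CPM + 1) minus the gene's mean over the 4 libraries, arranged by complex, and the black lines are medians over the genes. In every complex the AAV-CTRL 1 points have the highest median and the AAV-mVEGF-C 1 points the lowest, while AAV-CTRL 2 and AAV-mVEGF-C 2 lie between them.

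Without AAV-CTRL 1, the median log2 fold change of the 80 genes was −0.05 and 50 of them were lower, where 49.7% of all genes tested in that fit were lower. Without AAV-CTRL 2, it was −0.40, and 17 of the 83 genes then tested (20.5%) had an adjusted p under 0.05 by the same edgeR test, all lower, where 2058 of 22401 genes (9.19%) passed. With AAV-CTRL 1 left out, 0 of the 81 genes tested passed (1.85% of all) and 1 had an unadjusted p under 0.05 (7.75%). At that unadjusted limit more passed without AAV-CTRL 2, among these genes and among all genes, with the larger share among these genes. Leaving out AAV-mVEGF-C 1 gave 0 genes at either limit (0.0097% and 0.795% of all), as did leaving out AAV-mVEGF-C 2 (0.284% and 2.29%). The fits without a control leave 1 control library, whose spread is assumed to equal that of the AAV-mVEGF-C libraries. The genes with the lowest adjusted p in the fit without AAV-CTRL 2 were Uqcrb, Ndufv3, Ndufc1, and Cox4i1, with log2 fold changes of −1.12, −0.95, −1.32, and −0.91. All 4 had at least 1.76 times as many CPM in AAV-CTRL 1 as in AAV-CTRL 2. Whether the neutrophil transcripts or the lower number of detected genes of AAV-CTRL 1 had a part in these differences was not tested.

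**Figure D2:**
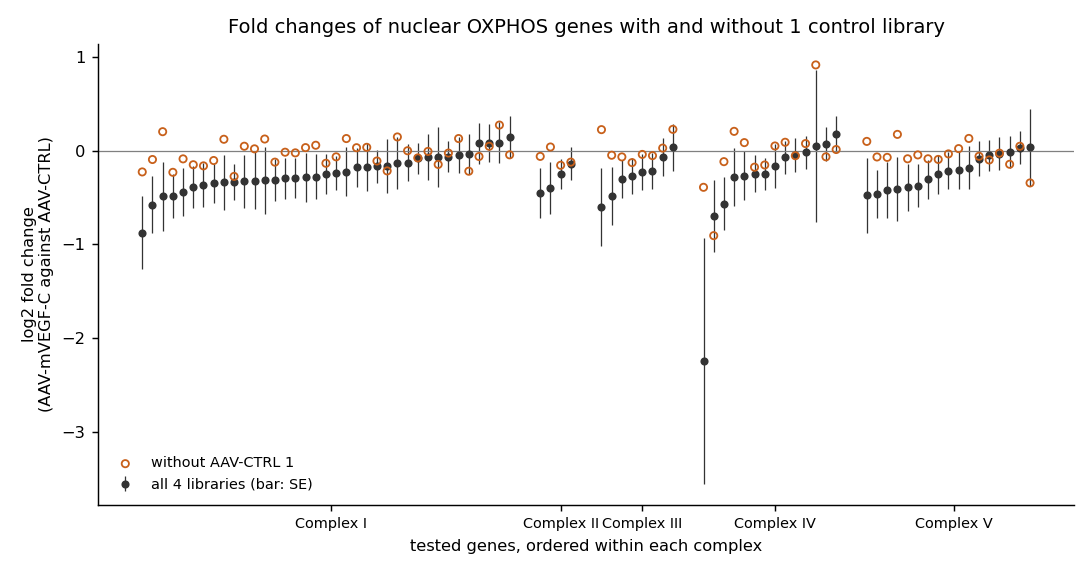
The log2 fold change of AAV-mVEGF-C against AAV-CTRL is plotted for each of the 80 tested genes, ordered within each complex, from all 4 libraries (filled points, bars of 1 SE) and without AAV-CTRL 1 (open points). The filled points lie mostly below 0, with a median of −0.25, and the open points lie around 0, with a median of −0.05.

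The level of each complex was summed from TPM, the scale on which genes of different length can be compared. The nuclear subunits of all 5 complexes made up 0.531% and 0.422% of the TPM in the controls, and 0.33% and 0.388% in libraries 1 and 2 of AAV-mVEGF-C. The group levels were 4765 ± 774 TPM in AAV-CTRL and 3589 ± 408.2 TPM in AAV-mVEGF-C (mean ± SD, n = 2 pools each), and the groups did not overlap. Complex V was the most abundant, with 1679 and 1381 TPM in the controls and 1049 and 1259 TPM after AAV-mVEGF-C. Complex I followed with 1634 and 1273 TPM against 1013 and 1164 TPM, and complex IV with 1190 and 961.5 TPM against 756.3 and 906.5 TPM. In each of these complexes both AAV-mVEGF-C libraries lay below both controls. The same held for complex III, at 619.2 and 452.7 TPM against 366.2 and 419.5 TPM, and for complex II, at 190.8 and 148.4 TPM against 115.5 and 127.7 TPM.

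The CPM and the TPM did not give the same separation. In TPM, both AAV-mVEGF-C libraries were below both controls for 55 of the 80 genes (68.8%), against 28.5% of all tested genes, where the CPM gave 17 genes. On log2(TPM + 1), 79 genes were lower (98.8%; 62.2% of all tested genes) and the median difference was −0.39, against −0.08 over all tested genes, which was itself below 0. The TPM of a gene divided by its CPM had a median over the 80 genes of 1.27 and 1.32 in the controls and 1.16 and 1.17 in the AAV-mVEGF-C libraries. Over all tested genes above 10 CPM it was also higher in the controls, at 0.30 and 0.336 against 0.291 and 0.292. Again 0 of the 80 genes had an adjusted p under 0.05 when limma was run on log2(TPM + 1).

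**Figure D3:**
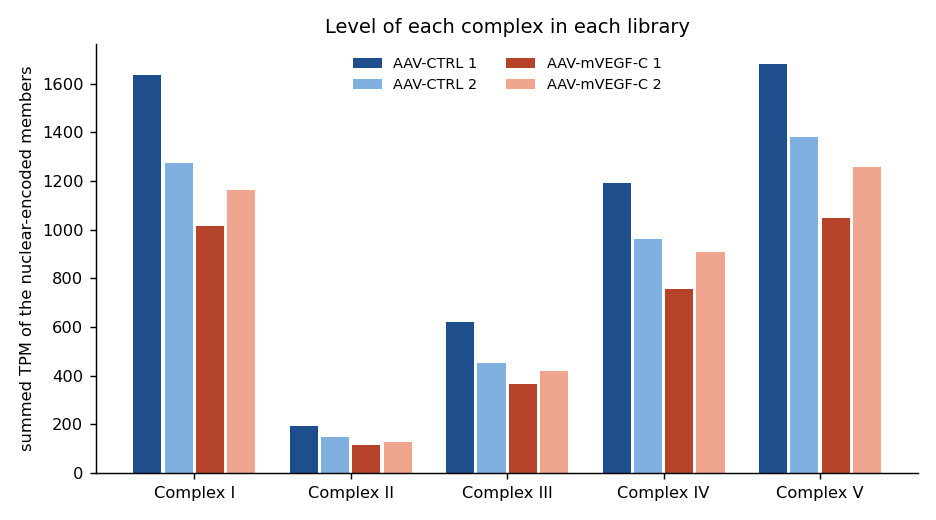
Bars give the summed TPM of the nuclear-encoded subunits of each complex in each of the 4 libraries. In each complex AAV-CTRL 1 is highest and AAV-mVEGF-C 1 lowest, with AAV-CTRL 2 above AAV-mVEGF-C 2, as for complex V at 1679, 1381, 1049, and 1259 TPM in the order of the legend.

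The promoters of these genes were searched because many nuclear subunit genes are known targets of the transcription factors NRF1, GABPA (of the ETS family), and YY1. RefSeq promoters on GRCm38.p6, of 300 bases with 250 before the start and 50 after it, were matched by symbol for 68 of the 88 gene symbols. The letters GCGCA and GCGC with any base between them (NRF1), CCGGAAGT (ETS), and AAGATGGC (YY1) were searched on both strands, and none of these 3 motifs contains another. The NRF1 letters occurred in 17 of the 68 genes (25.0%), against 5.19% of all 27025 genes with a promoter and 9.83% of those tested here. The ETS letters occurred in 5 (7.35%; 4.31% of all and 7.8% of tested genes), and the YY1 letters in 10 (14.7%; 3.19% of all and 4.61% of tested genes). By complex, the NRF1 letters were found in 7 of 32 genes of complex I, 2 of 3 of complex II, 1 of 5 of complex III, 1 of 13 of complex IV, and 6 of 15 of complex V. The median log2 fold change was −0.25 for the 17 genes with the NRF1 letters and −0.24 for the 48 tested genes without them. It was −0.13 and −0.25 for the 5 genes with and the 60 without the ETS letters, and −0.18 and −0.25 for the 10 with and the 55 without the YY1 letters. A match is a run of letters and not a measured binding site.

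The promoters of 3 described genes are shown because they hold the NRF1 letters 3 times, 2 times, and 1 time. Each sequence gives the 250 bases before the start, on the minus strand of GRCm38.p6, with matches in capitals. They lie at chr13:74350241-74350490 (Sdha), chr5:115348959-115349208 (Cox6a1), and chr5:108434400-108434649 (Atp5k).
Sdha: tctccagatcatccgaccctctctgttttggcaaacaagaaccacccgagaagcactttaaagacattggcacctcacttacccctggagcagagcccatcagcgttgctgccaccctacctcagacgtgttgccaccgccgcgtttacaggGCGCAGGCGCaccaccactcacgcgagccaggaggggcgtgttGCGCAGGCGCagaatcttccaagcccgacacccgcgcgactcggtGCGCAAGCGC
Cox6a1: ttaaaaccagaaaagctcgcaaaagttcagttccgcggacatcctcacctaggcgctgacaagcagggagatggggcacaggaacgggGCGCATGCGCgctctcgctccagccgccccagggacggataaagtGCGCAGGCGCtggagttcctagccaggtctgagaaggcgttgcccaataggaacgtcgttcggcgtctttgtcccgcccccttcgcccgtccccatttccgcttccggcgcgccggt
Atp5k: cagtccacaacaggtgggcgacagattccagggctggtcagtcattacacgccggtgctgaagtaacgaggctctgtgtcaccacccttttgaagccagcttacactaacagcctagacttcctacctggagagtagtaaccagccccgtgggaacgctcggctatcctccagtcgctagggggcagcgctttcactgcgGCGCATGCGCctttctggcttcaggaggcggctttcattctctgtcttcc

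Complex I, the NADH dehydrogenase, had 37 tested genes, of which 33 were lower after AAV-mVEGF-C, and the median log2 fold change was −0.25 with all libraries and −0.03 when AAV-CTRL 1 was left out. Its 7 core catalytic genes were all lower (median −0.17), as were 26 of the 29 accessory genes (median −0.29). Without AAV-CTRL 1, 6 of the 7 core genes (median −0.07) and 16 of the 29 accessory genes (median −0.02) were lower. Ndufv1 (chr19:4007384-4012806), the subunit that binds NADH, had 64.01 and 45.39 CPM in the controls and 34.46 and 43.73 CPM after AAV-mVEGF-C. The groups did not overlap, by a margin smaller than the gap between either pair of replicates. Its log2 fold change was −0.49 (SE 0.23), with an unadjusted p of 0.080 in edgeR, and it was −0.23 without AAV-CTRL 1.

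Ndufs1, the largest subunit with iron-sulfur clusters of the peripheral arm, had 62.96 and 43.44 CPM in the controls and 41.39 and 45.46 CPM after AAV-mVEGF-C. AAV-CTRL 1 stood alone and AAV-CTRL 2 lay between the AAV-mVEGF-C libraries. The log2 fold change was −0.29 (SE 0.22), and −0.02 without AAV-CTRL 1.

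Ndufc1 (chr3:51404677-51408988), a small accessory subunit of the membrane arm, had the lowest fold change in complex I and the lowest p of all 80 genes. It had 22.43 and 10.35 CPM in the controls and 9.753 and 8.14 CPM after AAV-mVEGF-C. AAV-CTRL 2 lay closer to the AAV-mVEGF-C libraries than to the other control. The log2 fold change was −0.87 (SE 0.39, unadjusted p of 0.067 in edgeR), and −0.23 without AAV-CTRL 1. At the other end, Ndufb4c had 15.84 and 20.56 CPM against 18.48 and 21.83 CPM, a log2 fold change of 0.15 (SE 0.22), or −0.05 without AAV-CTRL 1 and −0.11 on log2(TPM + 1). The annotation lists Ndufb4c as a processed pseudogene of Ndufb4, and both had reads divided between genes, so the values of this pair are uncertain. Ndufa4, counted here by its symbol and now regarded as a subunit of complex IV, had a log2 fold change of 0.08.

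Complex II, succinate dehydrogenase, is shared with the tricarboxylic acid cycle, and all 4 of its genes were lower, with a median of −0.32 and of −0.09 without AAV-CTRL 1. Sdha, the flavoprotein that oxidizes succinate, had 174.7 and 151.7 CPM in the controls and 131.9 and 143.4 CPM after AAV-mVEGF-C, with no overlap. Its log2 fold change was −0.25 (SE 0.16, the smallest SE of the 80 genes), and −0.16 without AAV-CTRL 1. Sdhb, the subunit with iron-sulfur clusters, had 78.55 and 44.98 CPM against 44.26 and 49.22 CPM, so that AAV-mVEGF-C 2 was above AAV-CTRL 2. Its log2 fold change was −0.40 (SE 0.28) with all libraries and 0.04 without AAV-CTRL 1.

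The membrane anchors of complex II differed in how far they rested on AAV-CTRL 1. Sdhc had 30.89 and 29.57 CPM in the controls and 25.42 and 29.53 CPM after AAV-mVEGF-C, a log2 fold change of −0.14 (SE 0.18). Sdhd had 54.19 and 32.77 CPM against 30.46 and 33.06 CPM, a log2 fold change of −0.45 (SE 0.26). The controls of Sdhc were nearly equal and its fold change was −0.12 without AAV-CTRL 1 but −0.03 without AAV-mVEGF-C 1, while that of Sdhd became −0.06.

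Complex III, the cytochrome bc1 complex, had 7 of 8 genes lower and a median of −0.25, and AAV-CTRL 1 was the highest library for all 8. Without it, 5 of the 8 were lower and the median was −0.04. Uqcrc1, a core protein, had 132.4 and 95.8 CPM in the controls and 84.89 and 100.1 CPM after AAV-mVEGF-C, a log2 fold change of −0.30 (SE 0.21), or −0.07 without AAV-CTRL 1. Uqcrfs1, the Rieske iron-sulfur protein, had 61.22 and 49.78 CPM against 41.7 and 50.45 CPM, a log2 fold change of −0.27 (SE 0.19), or −0.13 without AAV-CTRL 1. In both, AAV-mVEGF-C 2 was slightly above AAV-CTRL 2.

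Uqcrb (chr13:66900617-66905378), a small subunit near the coenzyme Q site, had the lowest fold change in complex III. It had 56.79 and 21.98 CPM in the controls and 25.83 and 26.12 CPM after AAV-mVEGF-C. AAV-CTRL 1 thus had 2.58 times the CPM of AAV-CTRL 2, and AAV-CTRL 2 was the lowest of the 4 libraries. The log2 fold change was −0.60 (SE 0.42) and turned to 0.22 without AAV-CTRL 1. Uqcr10, another small subunit, had the highest fold change of the complex, with 13.17 and 10.03 CPM against 12.59 and 11.17 CPM and a log2 fold change of 0.03 (SE 0.25), or 0.23 without AAV-CTRL 1 and −0.20 on log2(TPM + 1).

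Complex IV, cytochrome c oxidase, had 11 of 14 tested genes lower and a median of −0.21, or −0.02 without AAV-CTRL 1. Cox4i1 (chr8:120668222-120674207), the common form of the largest nuclear subunit, had 215.9 and 122.6 CPM in the controls and 104.7 and 123.8 CPM after AAV-mVEGF-C. AAV-CTRL 2 and AAV-mVEGF-C 2 were nearly equal. Its log2 fold change was −0.57 (SE 0.28, unadjusted p of 0.091 in edgeR), and −0.12 without AAV-CTRL 1.

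The other common subunits followed here, Cox5a and Cox6a1, did not lie in the order of Cox4i1. Cox5a had 20.49 and 25.35 CPM in the controls and 26.24 and 25.49 CPM after AAV-mVEGF-C. It was the 1 gene of the 80 with both treated libraries higher than both controls, although AAV-CTRL 2 and AAV-mVEGF-C 2 were nearly equal. Its log2 fold change was 0.17 (SE 0.19), the highest of the 80, and 0.01 without AAV-CTRL 1, while on log2(TPM + 1) the difference was −0.056. Cox6a1 had 44.84 and 44.34 CPM against 38.25 and 48.11 CPM, so its controls lay within the range of the AAV-mVEGF-C libraries, and its log2 fold change was −0.05 (SE 0.18), which turned to 0.12 without AAV-mVEGF-C 1.

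Several subunits of complex IV exist in a common form and in a form restricted to tissues such as muscle, heart, lung, or testis. The restricted forms had at most 173 reads in any library. Of the pair with Cox4i1, Cox4i2, the form known from lung and from hypoxia, took 0.895% and 0.251% of the summed TPM in the controls and 0.103% and 0.296% after AAV-mVEGF-C. Its reads numbered 82 and 10 in AAV-CTRL and 4 and 11 in the treated libraries, so its log2 fold change of −2.24 (SE 1.31), the lowest of the 80 genes, rested on 1 library and was −0.39 without it. Cox6b2, known from testis, had 70 and 20 control reads, against 56 and 25 after AAV-mVEGF-C, with a log2 fold change of 0.05 (SE 0.81). This value was 0.91 without AAV-CTRL 1, −0.48 without AAV-CTRL 2, and −0.25 on log2(TPM + 1).

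Cox6a2 is the form of heart and skeletal muscle, and its highest library was AAV-CTRL 2. It had 3.78 and 5.03 CPM in the controls and 2.586 and 2.84 CPM after AAV-mVEGF-C, with no overlap. Its log2 fold change was −0.70 (SE 0.38) with all libraries, with an unadjusted p of 0.118 in edgeR. It was −0.91 without AAV-CTRL 1, where it was the 1 gene of the 80 with an unadjusted p under 0.05 (0.032) and 7.75% of all genes tested had one. It took 6.47% and 8.75% of the TPM of the pair with Cox6a1 in the controls and 5.38% and 4.77% after AAV-mVEGF-C. The summed level of 6 muscle markers was low, at 1.581 and 2.057 TPM in the controls and 4.226 and 6.814 TPM after AAV-mVEGF-C. Of the 6, 3 were at 0 reads in AAV-CTRL 1 and 0 in the others. Which cells the Cox6a2 reads came from was not tested.

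The 9 genes that were not tested had at most 17 reads in any library. Cox7a1, a muscle and heart form, had 17 and 3 control reads, against 6 and 9 after AAV-mVEGF-C, and Ndufa4l2, a paralog of Ndufa4 known from hypoxia, had 0 and 9 reads against 5 and 3. Cox7b2 was at 0 reads in all libraries but AAV-mVEGF-C 1, with 4. Cox8b had 0 and 3 reads against 2 and 0, and Cox8c 0 and 1 against 0 and 0. The others were the processed pseudogenes Ndufs6b, Cox6c2, and Ndufa11b and a second row named Atp5o, which had 0 reads in all 4 libraries. At these numbers no difference between the groups was detectable.

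**Figure D4:**
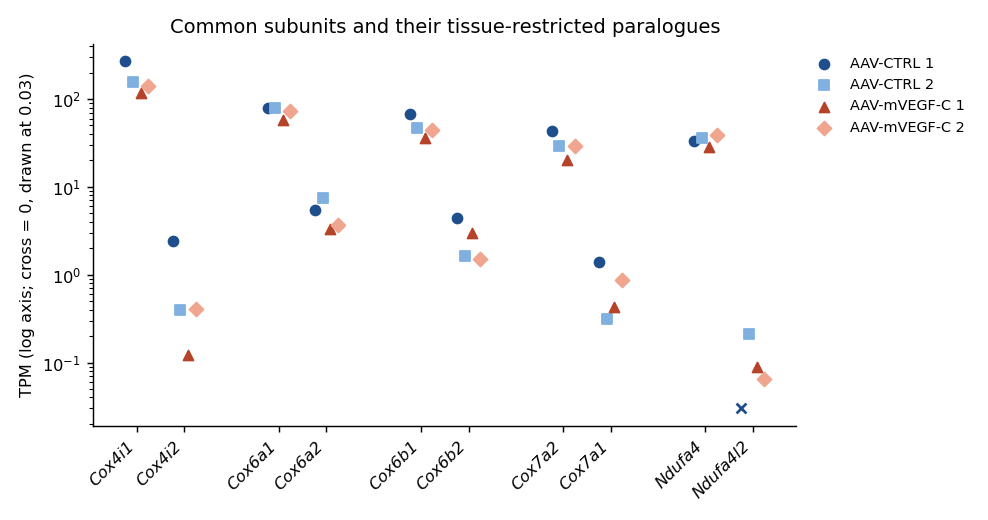
The TPM of 5 common subunits and of their tissue-restricted paralogs is shown in each library on a log axis, with a cross for a value of 0. In each library every restricted form lies below its common form, and Cox4i2 and Cox7a1 are highest in AAV-CTRL 1 while Cox6a2 is highest in AAV-CTRL 2.

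Complex V, the ATP synthase, had 15 of 17 tested genes lower, with a median of −0.21 and of −0.06 without AAV-CTRL 1. All 5 genes of the F1 head, where ATP is made, were lower (median −0.21), and all 4 of the peripheral stalk (median −0.23). Without AAV-CTRL 1, all 5 of the head (median −0.06) and 2 of the 4 of the stalk (median −0.01) were lower. Atp5b, the catalytic beta subunit, had 423.8 and 312.3 CPM in the controls and 275.4 and 319.2 CPM after AAV-mVEGF-C, a log2 fold change of −0.31 (SE 0.21) with all libraries and −0.09 without AAV-CTRL 1. Atp5a1, the alpha subunit of the same ring, had 392.6 and 304.1 CPM against 272.2 and 328.1 CPM, a log2 fold change of −0.21 (SE 0.20), or −0.04 without AAV-CTRL 1. Both genes had the same order of libraries, with AAV-CTRL 1 first, then AAV-mVEGF-C 2, AAV-CTRL 2, and AAV-mVEGF-C 1, and neither group lay apart from the other.

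In the membrane part of the enzyme, Atp5k, the e subunit, had the lowest fold change of complex V, with 12.68 and 6.309 CPM in the controls and 5.939 and 7.73 CPM after AAV-mVEGF-C. Atp5k had a log2 fold change of −0.48 (SE 0.40), which turned to 0.10 without AAV-CTRL 1. The highest was that of Atp5g2, 1 of the 3 genes that encode the same c ring protein, with 3.109 and 5.583 CPM against 4.761 and 4.133 CPM and a log2 fold change of 0.04 (SE 0.41), which turned to −0.34 without AAV-CTRL 1 and was −0.022 on log2(TPM + 1). Its controls enclosed both AAV-mVEGF-C libraries. The c ring had a median of −0.02 over its 3 genes, or −0.15 without AAV-CTRL 1, and the reads of Atp5g1 and Atp5g2 were divided between genes in part, so their values are uncertain.

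Among the 17 genes whose groups did not overlap, 9 belonged to complex I, 2 to complex II, 3 each to complexes IV and V, and 0 to complex III. Besides Ndufv1, Ndufc1, Sdha, Sdhc, and Cox6a2 they were Ndufa10, Ndufa8, Ndufs5, Ndufc2, Ndufa11, Ndufa2, and Ndufs8 of complex I, Cox7c and Cox7a2l of complex IV, and Atp5c1, Atp5g1, and Atp5h of complex V. Their share, 21.2%, was set against 15.2% over all tested genes. For some, AAV-CTRL 2 and AAV-mVEGF-C 2 were nearly equal, as for Atp5c1 at 98.77 and 98.47 CPM and Atp5h at 76.44 and 76.1 CPM. No single role among the subunits held them all.

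The subunits encoded by mitochondrial DNA are partners of these proteins and were described beside them. Of the 13 genes, 11 were lower and 2, mt-Atp6 and mt-Nd6, had log2 fold changes above 0, with a median of −0.25 and of −0.20 without AAV-CTRL 1, and 0 passed the test. Their summed level was 13490 and 13280 TPM in the controls and 8915 and 11100 TPM after AAV-mVEGF-C. The summed level differed less between the controls for these genes than for the nuclear ones. Single genes differed in either direction, as mt-Atp8 at 2132 and 1255 TPM and mt-Atp6 at 1548 and 2523 TPM in the controls. The ratio of mitochondrial to nuclear subunit TPM was 2.54 and 3.15 in the controls and 2.70 and 2.86 after AAV-mVEGF-C, so the groups overlapped in it.

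Other mitochondrial gene lists were compared by their counts. All 18 genes of the tricarboxylic acid cycle, which feeds electrons into the chain, were lower (median −0.27, and −0.08 without AAV-CTRL 1). Of 78 mitochondrial ribosomal protein genes, 66 were lower (median −0.25, and −0.13 without AAV-CTRL 1), and of 50 assembly factors of the complexes, 41 (median −0.11, and −0.04 without AAV-CTRL 1). Of 13 genes of coenzyme Q synthesis, 8 were lower (median −0.06, and −0.10 without AAV-CTRL 1). Of 15 regulators of mitochondrial biogenesis, among them Nrf1, Gabpa, Tfam, and Ppargc1a, 7 were lower (median 0.01). The values of the regulators were thus near those of all tested genes (median 0.0034).

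The remaining lists were glycolysis and the electron carriers and subunits that the symbols left out. Of 20 genes of glycolysis, the cytosolic route to ATP, 14 were lower (median −0.16), and without AAV-CTRL 1 only 6 were (median 0.11). Of 6 tested carriers and subunits, among them cytochrome c (Cycs), cytochrome c1 of complex III (Cyc1), and Ndufab1 of complex I, 5 were lower (median −0.25, and −0.10 without AAV-CTRL 1). Slc25a4, the ADP/ATP carrier of heart and muscle, had 97.32 and 70.22 CPM in the controls and 47.2 and 62.97 CPM after AAV-mVEGF-C, with a log2 fold change of −0.61 (SE 0.23). Its unadjusted p in edgeR was 0.040, and it was the 1 gene of all 8 lists with one under 0.05. After adjustment 0 genes of any list passed.

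**Figure D5:**
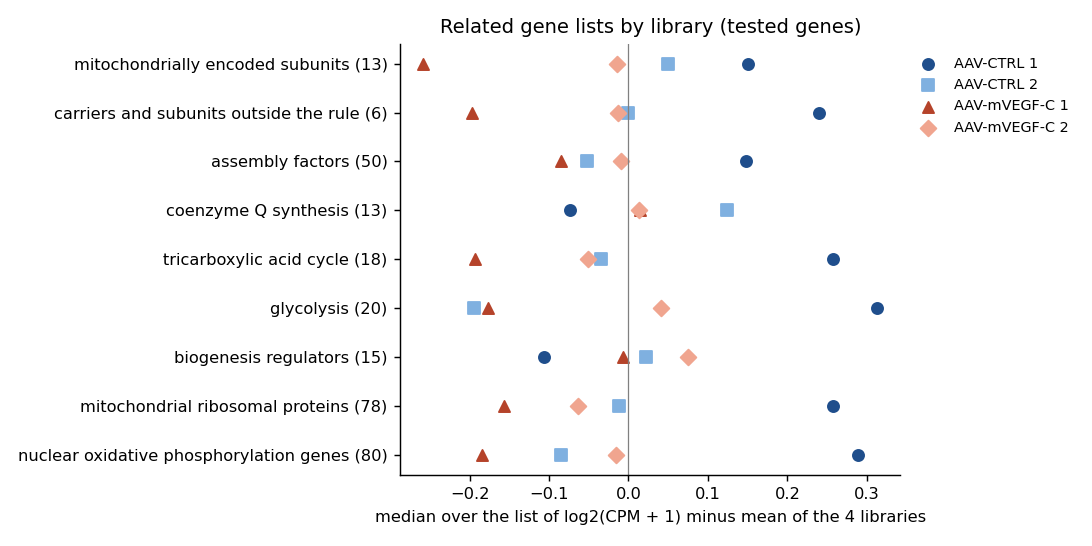
For each gene list and for the oxidative phosphorylation genes, the points give the median over the tested genes of log2(CPM + 1) minus the gene's mean of the 4 libraries, in each library. AAV-CTRL 1 is the highest library in all rows except coenzyme Q synthesis and the biogenesis regulators, where it is the lowest, and it is at 0.29 for the oxidative phosphorylation genes and 0.31 for glycolysis.

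Markers of the cell types in the sort varied beside these genes. The summed macrophage markers were 596.6 and 934.7 TPM in the controls and 463.4 and 704.2 TPM after AAV-mVEGF-C, and the B cell markers were 93.98 and 248.5 TPM against 84.61 and 97.42 TPM. Plasma cell markers were 236.1 and 271.7 TPM against 498.6 and 509.9 TPM, and T cell markers 124.5 and 138.7 TPM against 164.8 and 159.3 TPM. Of the immune cell sums, the neutrophil one, carried by S100a8, S100a9, Ngp, and Ltf, was highest in AAV-CTRL 1. So was that of the 4 general leukocyte markers, by a smaller margin, at 1338 and 1221 TPM against 1082 and 1208 TPM. The macrophage and B cell sums were lowest in AAV-mVEGF-C 1, and the plasma cell and T cell sums in AAV-CTRL 1. Markers of cells outside the CD45 gate were also detected, and the source of these transcripts was not tested. Fibroblast markers were at 91.32 and 162.7 TPM against 48.42 and 74.96 TPM, and erythroid markers at 201.9 and 243.5 TPM against 37.11 and 72.29 TPM. The endothelial sum, at 24.52 and 21.24 TPM against 14.14 and 16.3 TPM, was mostly Pecam1 (20.86 and 16.09 TPM against 10.75 and 12.68 TPM), which leukocytes also express. The part of any of these cell types in the levels of the oxidative phosphorylation genes was not tested.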

How the data were processed

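RNA of sorted dural CD45+ cells was measured in 4 libraries, 2 of AAV-CTRL and 2 of AAV-mVEGF-C, grouped by the labels. The authors deposited estimated counts per gene, not normalized, of which 8.18% of the values were not whole, and TPM values scaled by gene length to 1000000 per library. Per the labels, FastQC, Trimmomatic, DRAGEN, and Picard and the build mm10 were used. Their versions and roles, the annotation, and the strand setting of the counting are not given in the sources used here. The libraries were made with a stranded total RNA kit for low inputs, with PCR, so reads are not independent molecules. Estimated counts were rounded to whole numbers, and where the authors' program divided reads between related genes, as for 27 of the 89 genes, the value depends on that division.

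All genes of the table were fitted together in edgeR 4.0.16 (R 4.3.3) by glmQLFit and tested by glmQLFTest, after TMM scaling and filterByExpr, which left 19806 of 55401 genes. The fit held the 4 libraries and no covariate, and p-values were adjusted by Benjamini-Hochberg with a threshold of 0.05. The SE is the size of the log2 fold change divided by the square root of F, and the common dispersion was 0.173. CPM were computed with TMM factors of 0.964 to 1.03. An exact permutation test of 2 pools against 2 could not go below p = 0.333 and was not used. Complexes and roles were assigned by symbol. Genes were named if they had the highest or lowest fold change of a complex, were in a fixed set of 12 core subunits or of tissue-restricted forms, or had 1 of the 3 smallest p. Other genes are given by range and count, except that Ndufv3, Ndufa4, Ndufb4, Slc25a4, the genes with non-overlapping groups, and the untested genes were named after their values were seen. The genes and lists were chosen with earlier results of these data known, and no set test was made. Gene coordinates (GRCm38) came from GENCODE M21, which holds all 89 identifiers.

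The alternatives were DESeq2 1.42.0, which is the tool named in the study's methods, limma-voom (limma 3.58.1), RLE scaling, at least 10 reads in every library, no filter, a replicate block, limma on log2(TPM + 1) and log2(TPM + 0.1), and fits without 1 of the 4 libraries. After seeing the data, a crossed block and total reads with no scaling factor were added. The tests were first tried on simulated data. Pools of 1 group share the vector and the sorting procedure, and the labels give them different experiment numbers. Nothing more is known of how separate they were, so p-values measure only the spread between these pools. Protein sequences were not analysed here, and the values of 1 core subunit are not reported here.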

Additional observations from a re-analysis of the deposited data

How the results depend on the processing

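The direction of the median was lower after AAV-mVEGF-C for each complex and for all 80 genes under all 14 alternatives, with DESeq2, limma-voom, RLE scaling, total reads, both filters, and both blocks giving medians within the SD between replicates of the main values, and 0 oxidative phosphorylation genes passed in each of these. Leaving out 1 library gave 0 to 17 genes passing, where the 17 came from the fit without AAV-CTRL 2, 50 to 74 genes lower, and 9 to 31 genes higher. The medians then ranged from −0.40 to −0.026 for complex I, −0.54 to −0.092 for complex II, −0.40 to −0.045 for complex III, −0.35 to −0.022 for complex IV, −0.41 to −0.061 for complex V, and −0.40 to −0.048 over all genes, with the values nearest 0 in the fit without AAV-CTRL 1. With TPM, 1 gene was higher with either pseudocount, and the medians with a pseudocount of 1 were −0.39 for complex I, −0.46 for complex II, −0.40 for complex III, −0.39 for complex IV, and −0.33 for complex V, where a pseudocount of 0.1 gave −0.40, −0.47, −0.41, −0.39, and −0.33. The median of all tested genes was 0.25 with DESeq2 and 0.22 with no filter, both over 40674 genes, 0.13 without AAV-CTRL 2, and −0.11 for TPM with a pseudocount of 0.1, so fold changes under these settings are read against those values.

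Of the 23 named genes tested, 9 changed sign under some alternative. With TPM and a pseudocount of 1, the log2 difference was −0.022 for Atp5g2, −0.056 for Cox5a, −0.25 for Cox6b2, −0.11 for Ndufb4c, and −0.20 for Uqcr10, and with a pseudocount of 0.1 it was −0.0069 for Atp5g2, −0.057 for Cox5a, −0.32 for Cox6b2, −0.11 for Ndufb4c, and −0.20 for Uqcr10. When each library was left out in turn, the log2 fold change ranged from −0.34 to 0.52 for Atp5g2, −0.88 to 0.10 for Atp5k, −0.22 to 0.12 for Cox6a1, −0.48 to 0.91 for Cox6b2, −0.045 to 0.36 for Ndufb4c, −0.74 to 0.039 for Sdhb, −0.14 to 0.23 for Uqcr10, and −1.12 to 0.22 for Uqcrb. Without AAV-CTRL 1, Atp5k, Sdhb, and Uqcrb turned to higher and Atp5g2 and Ndufb4c to lower. The cause was not tested.

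The experiment numbers in the labels pair the libraries, but the column names number them differently, and samples with the same number did not deviate together (r = −0.13 across genes on edgeR's log2 CPM, −0.04 on log2(CPM + 1)). With the number as a replicate block, 70 of the 80 genes were lower, the median was −0.23, and 0 passed, against 11 of all tested genes. With the pairing crossed, which was chosen after seeing the data, the same counts were 70 and 0, the median was −0.23, and 54 of all tested genes passed.

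With 2 pools a group and a median SE of 0.22, log2 differences of the size of the median could not be told from the spread between pools. The 9 genes with at most 17 reads in any library say nothing about a difference.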
